A study of Mus musculus with 4 samples.

Results

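The enzymes that turn cholesterol into bile acids were examined here in livers that received a lipin 1beta adenovirus. The set holds 10 genes, Cyp7a1, Cyp7b1, Cyp8b1, Cyp27a1, Hsd3b7, Akr1c6, Amacr, Scp2, Baat and Slc27a5, and every probe set whose only gene symbol in the platform annotation is one of them was taken. That gave 16 probe sets of the 22626 on the array that are not controls, and 10 genes of the 12393 it names. The groups were 2 liver samples labelled Ad-lipin and 2 labelled GFP control, each measured on its own array. Both groups were adult male C57BL6 mice that carried an adenovirus, which in the Ad-lipin livers drove mouse lipin 1beta and in the control livers green fluorescent protein, and livers were taken on day 6 after injection. Neither the promoter of the vector nor whether the samples of a group are separate animals is stated in the labels. The p-values therefore reflect how these samples vary among themselves, largely pooled over probe sets, and that variation may be only technical.

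Hepatocytes make bile acids by 2 routes. In the classic route Cyp7a1, the rate-limiting enzyme, hydroxylates the sterol ring first, Hsd3b7, Cyp8b1 and Akr1c6 modify the ring further, and Cyp27a1 in the mitochondrion oxidises the side chain. In the alternative route Cyp27a1 acts first and Cyp7b1 hydroxylates the resulting oxysterols. Amacr and Scp2 take part in shortening the side chain in peroxisomes. Slc27a5 joins bile acids to coenzyme A, and Baat links activated bile acids, in mice, to taurine. Bile acids repress the pathway through the nuclear receptor Nr1h4 (FXR) and its target Nr0b2 (SHP), while Nr5a2 (LRH-1) and Hnf4a activate Cyp7a1 and Cyp8b1.

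The values are MAS5 signals, a brightness in arbitrary units that the authors scaled to the same trimmed mean on every array (1501). A difference is given as log2 of Ad-lipin minus GFP, from signals with the lowest 20% of all values raised to a common floor of 119.5. It comes with a standard error (SE) or 95% interval from limma. Limma draws this SE towards a spread pooled over all tested probe sets, with 12.7 prior degrees of freedom. Each SE is thus mostly that pooled spread, and it can be smaller than the spread of a probe set's own arrays. The tested set comprised 13576 probe sets with a geometric mean signal of at least 373. Median signals were 618 to 675 on the Ad-lipin arrays and 582 to 746 on the GFP arrays, and the 3' to 5' ratio of beta-actin, a sign of RNA quality, was 2.85 and 2.86 on the Ad-lipin arrays, against 1.77 and 4.22 on GFP replicates 1 and 2. GFP replicate 2 also had the lowest mean correlation with the other arrays (0.731, against 0.781 to 0.793), and Ad-lipin replicate 2 is labelled polyA RNA where the other 3 samples are labelled total RNA. The 2 probe sets of Lpin1, the gene in the vector, read 6719 and 11087 in Ad-lipin replicate 2, above both GFP arrays, but 2261 and 3854 in Ad-lipin replicate 1, against 2730 and 7082 in GFP replicate 1 and 1430 and 4632 in GFP replicate 2. In the library labelled Ad-lipin replicate 1, Lpin1 thus lay between the GFP arrays on the first probe set and below both on the second, and each direction below rests on the labels. All 6 hepatocyte markers with a probe set (Alb, Apoa1, Hpx, Tat, Ttc36 and Ttr) were bright, at 9474 or more on every array, while of 5 cholangiocyte markers 3 (Epcam, Krt19 and Sox9) were too dim to test.

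No bile acid synthesis enzyme was called different between Ad-lipin and GFP livers by limma. With 2 arrays a group, a change too small to be called cannot be told apart from no change. Of the 16 probe sets 15 were bright enough to test, covering all 10 genes. A log2 difference above 0 was found for 8 (50.3% over all probe sets tested) and one below 0 for 7 (49.7% over all), with a median of 0.11, where the median of all probe sets tested was 0.00378. The differences ran from -0.69 for Cyp8b1 to 1.20 for the dimmer Baat probe set. The limma threshold, an adjusted p under 0.05, was passed by 0 of the 15 in each direction (adjusted p from 0.962 to 0.998), and the share called over the whole table was 0% both for higher and for lower. At an unadjusted p under 0.05 the enzymes again gave 0 in each direction, where 2.47% of all probe sets were higher and 1.92% lower. In a bulk liver sample, fewer cells of a type and less RNA per cell cannot be told apart.

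**Figure D1:**
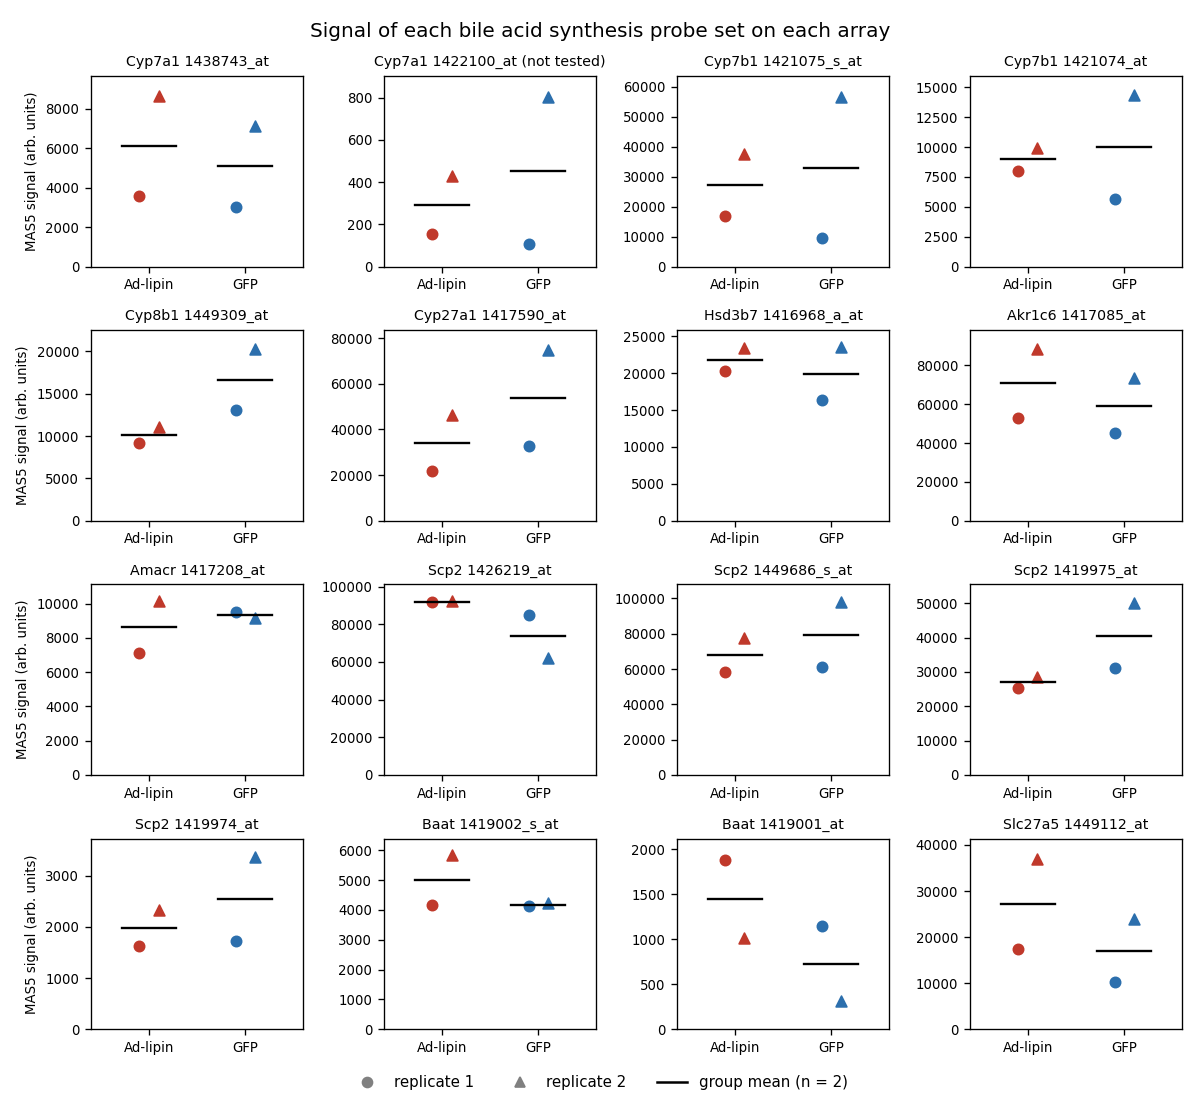
MAS5 signal (arbitrary units) of each of the 16 probe sets in the 2 Ad-lipin (red) and 2 GFP (blue) livers, with circles for replicate 1, triangles for replicate 2 and bars for the mean of 2 arrays. Triangles lie above circles in both groups for 13 probe sets, and the groups are apart for Cyp8b1 and for 2 of the 4 Scp2 probe sets.

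Cyp7a1, which sets the rate of the classic route, varied more within each group than between them. Its brighter probe set (1438743_at) read 3591 and 8655 in Ad-lipin replicates 1 and 2, against 3034 and 7144 in GFP replicates 1 and 2. The groups overlapped, since replicate 2 was high and replicate 1 low in both: the replicate 2 signal was 2.41 times that of replicate 1 in Ad-lipin livers and 2.35 times in GFP livers. The log2 difference was 0.26 ± 0.48 (SE, n = 2 per group; limma adjusted p = 0.967), with a 95% interval from -0.76 to 1.28. It was -0.37 without Ad-lipin replicate 2 and -0.36 without GFP replicate 1, against 0.89 without Ad-lipin replicate 1 and 0.88 without GFP replicate 2. The second Cyp7a1 probe set (1422100_at) was too dim to test and read 155 and 427 in Ad-lipin livers, against 107 and 801 in GFP livers, so it too was high in replicate 2 of each group.

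Hsd3b7, which oxidises the hydroxyl group on the sterol ring after the first hydroxylation, stayed in a narrow range. It read 20252 and 23356 in Ad-lipin livers, against 16333 and 23534 in GFP livers. GFP replicate 1 was the low array and the other 3 lay close together. Its log2 difference of 0.15 had a 95% interval from -0.55 to 0.85 and was -0.11 without GFP replicate 1.

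Cyp8b1, the hydroxylase that directs the pathway to cholic acid, had the smallest p of the set. It was one of 2 tested bile acid probe sets with both Ad-lipin arrays below both GFP arrays. It read 9231 and 11065 in Ad-lipin livers, against 13033 and 20284 in GFP livers, or 10148 ± 1297 and 16658 ± 5127 (SD, n = 2 each). GFP replicate 2 was the high array and Ad-lipin replicate 1 the low one. The log2 difference was -0.69 ± 0.33 (SE), 1.61-fold lower in Ad-lipin livers, and did not pass (limma unadjusted p = 0.0585, adjusted p = 0.962). Its 95% interval, from -1.40 to 0.03, still held 0, and leaving out GFP replicate 2 gave -0.37, GFP replicate 1 -1.01. After quantile normalization it was -0.73.

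The promoter of Cyp8b1 is shown because it carries adjoining motifs of Hnf4a and Nr5a2, activators of this gene whose own signals are given further on, and that of Akr1c6 because it is the other promoter of the set with the Nr5a2 motif. Of the 10 genes, 5 (Cyp8b1, Cyp27a1, Hsd3b7, Akr1c6 and Scp2) matched the promoter table, which was taken from RefSeq on GRCm38.p6. Cyp7a1, Cyp7b1, Amacr, Baat and Slc27a5 were not matched. Both strands of the 250 bases before the transcript start were searched for CAAAGTCCA, a motif bound by Hnf4a, and for CAAGGNCA, a half-site bound by Nr5a2, and matches stand in capitals in the 120 bases before the start, read on the strand of the gene. In Cyp8b1 the matches overlap by 2 bases, with the Hnf4a motif first. The Hnf4a motif was found in 1 of the 5 matched genes and in 0.384% of all 32851 promoters. The Nr5a2 motif was found in 2 of the 5 genes and in 5.53% of all promoters. The shares over all count promoters and not genes. A match describes letters and not a bound site.
Cyp8b1 (chr9:121916306-121916425, minus strand): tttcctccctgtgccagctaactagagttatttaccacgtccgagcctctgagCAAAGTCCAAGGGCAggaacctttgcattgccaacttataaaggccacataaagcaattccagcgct
Akr1c6 (chr13:4434223-4434342, plus strand): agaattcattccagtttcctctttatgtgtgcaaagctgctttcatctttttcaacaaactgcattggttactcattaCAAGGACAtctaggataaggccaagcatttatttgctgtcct

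Akr1c6, an aldo-keto reductase of the liver to which reduction of the ketone on the sterol ring is assigned in mice, followed the Cyp7a1 order of arrays rather than that of Cyp8b1. It read 52760.4 and 88724 in Ad-lipin livers, against 45294 and 73387 in GFP livers. Both replicate 2 arrays lay above both replicate 1 arrays, so the groups overlapped. Ad-lipin minus GFP came to 0.25 on the log2 scale with a 95% interval from -0.61 to 1.11, and it was -0.13 without Ad-lipin replicate 2 and -0.10 without GFP replicate 1.

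Cyp27a1, the mitochondrial hydroxylase that acts on the side chain, was 1.56-fold lower in Ad-lipin livers on average, but its groups overlapped. It read 21650.5 and 46321 in Ad-lipin livers, against 32858 and 74648 in GFP livers. GFP replicate 2 was the highest array and Ad-lipin replicate 1 the lowest, and the replicates differed by 2.14 times within the Ad-lipin group and 2.27 times within the GFP group. The log2 difference was -0.65 ± 0.44 (SE; limma adjusted p = 0.962), with a 95% interval from -1.59 to 0.30. It was -0.10 without Ad-lipin replicate 1 and -0.05 without GFP replicate 2, against -1.19 and -1.24 without the other array of each group.

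Cyp7b1, the oxysterol hydroxylase of the alternative route, had the widest gap between the GFP arrays among the tested bile acid probe sets. Its brighter probe set (1421075_s_at) read 16740 and 37672 in Ad-lipin livers, against 9564 and 56521 in GFP livers. Both Ad-lipin values lay between the GFP values, and the GFP replicates differed 5.91 times. Between groups it differed by 0.11 ± 0.61 on the log2 scale (SE; limma adjusted p = 0.986), a value that stood at -1.17 without GFP replicate 1 and at 1.39 without GFP replicate 2. The second probe set (1421074_at) read 8031 and 9920 in Ad-lipin livers, against 5658 and 14335 in GFP livers, with a log2 difference of -0.01 that ran from -0.68 to 0.66 with an array left out. It placed the 4 arrays in the same order as the brighter one.

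Amacr, the racemase that prepares the side chain for peroxisomal oxidation, did not follow this order. It read 7145 and 10151 in Ad-lipin livers, against 9531 and 9188 in GFP livers, so the GFP values lay inside the range of the Ad-lipin values. Its log2 difference was -0.14, with a 95% interval from -0.84 to 0.57, and it was 0.12 without Ad-lipin replicate 1.

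Scp2, which encodes the peroxisomal thiolase SCPx and the sterol carrier protein 2, was read by 4 probe sets that did not point the same way. The set 1426219_at read 91580 and 92122 in Ad-lipin livers, against 85170.5 and 61867 in GFP livers. It was the single tested bile acid probe set with both Ad-lipin arrays above both GFP arrays (log2 difference 0.34, 95% interval from -0.48 to 1.16). The set 1419975_at read 25389 and 28634 in Ad-lipin livers, against 31092 and 50130.3 in GFP livers, with both Ad-lipin arrays below (log2 difference -0.55, 95% interval from -1.29 to 0.19). GFP replicate 2 was the extreme array of each, the lowest in the first and the highest in the second, and without it the differences were 0.11 and -0.21. The set 1449686_s_at read 58235 and 77614 in Ad-lipin livers, against 61171 and 97918 in GFP livers, and 1419974_at read 1630.4 and 2325 in Ad-lipin livers, against 1733 and 3361 in GFP livers. In both of these the groups overlapped, with log2 differences of -0.20 and -0.31 that changed sign to 0.14 and 0.17 without GFP replicate 2. Where the probes of each set lie in the Scp2 transcripts is not known here.

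Slc27a5, the ligase that activates bile acids with coenzyme A, had the highest difference among the bile acid synthesis genes read by 1 probe set. It read 17412.5 and 36969 in Ad-lipin livers, against 10212.5 and 23914 in GFP livers, or 27191 ± 13829 and 17063 ± 9688 (SD, n = 2 each). Ad-lipin replicate 2 was the highest array and GFP replicate 1 the lowest, but Ad-lipin replicate 1 lay below GFP replicate 2, so the groups overlapped. The log2 difference was 0.70 ± 0.43 (SE), 1.62-fold higher in Ad-lipin livers, and did not pass (limma adjusted p = 0.962). Its 95% interval ran from -0.22 to 1.62, and the difference was 0.16 without Ad-lipin replicate 2 and 0.09 without GFP replicate 1.

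Baat, the transferase that links activated bile acids to an amino acid, gave unlike values on its 2 probe sets. The brighter (1419002_s_at) read 4158 and 5829 in Ad-lipin livers, against 4143 and 4216 in GFP livers, with Ad-lipin replicate 2 above 3 nearly equal arrays and a log2 difference of 0.24 (95% interval from -0.55 to 1.02). The dimmer (1419001_at) read 1882 and 1011 in Ad-lipin livers, against 1143 and 314 in GFP livers. Its log2 difference of 1.20 ± 0.80 (SE; limma adjusted p = 0.962) was the largest of the set, but it was 0.27 without GFP replicate 2, the lowest array, and the groups overlapped. Replicate 1 was the higher array of both groups, which held for this probe set alone among the 15 tested.

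**Figure D2:**
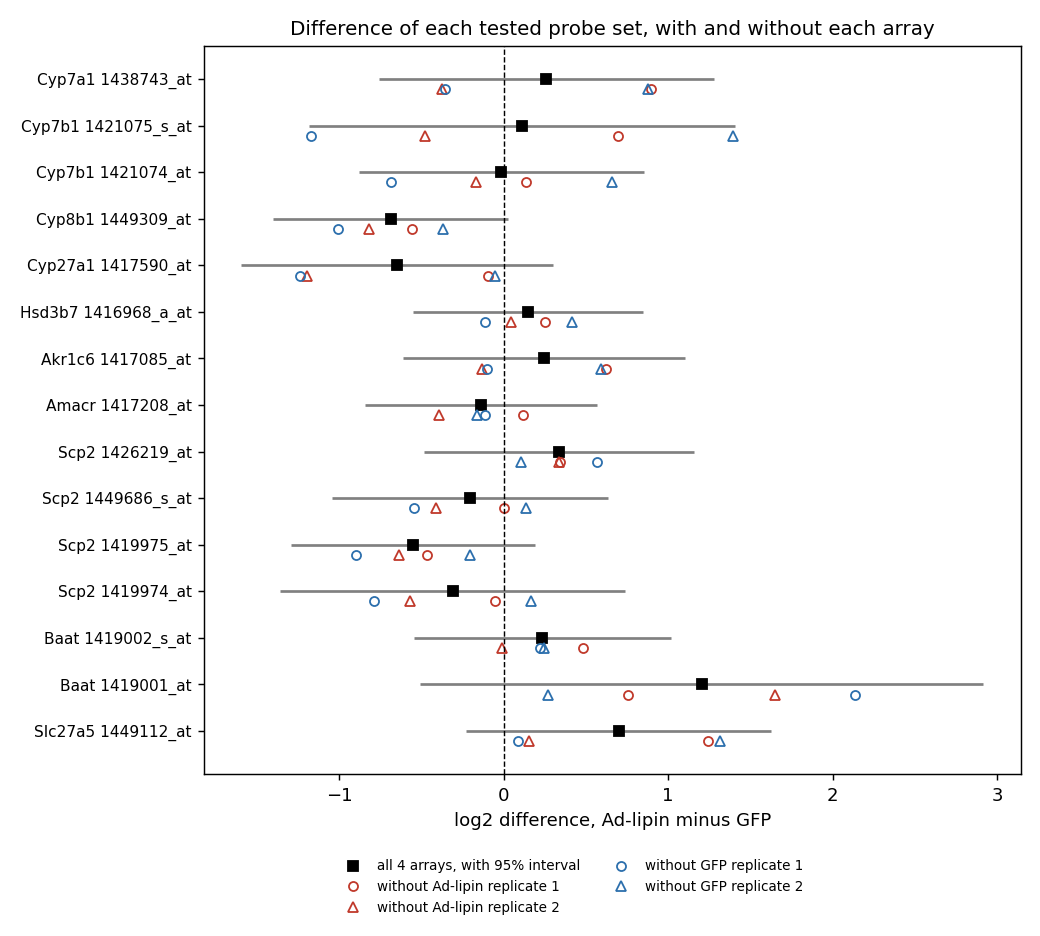
Log2 difference of Ad-lipin minus GFP for the 15 tested probe sets (squares, with limma's 95% interval as a line), and the same difference with 1 array left out (open symbols, red for Ad-lipin and blue for GFP arrays, circles for replicate 1 and triangles for replicate 2). All 15 intervals hold 0, and 9 probe sets have open symbols on the other side of 0 from the square.

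The groups overlapped in 12 of the 15 tested probe sets, where the share over all probe sets tested was 67.0%. Both Ad-lipin arrays lay above both GFP arrays in 1 (17.1% over all) and below in 2 (15.9% over all). With each array left out in turn, 9 of the 15 changed the sign of their difference. Such changes were not counted over all probe sets tested, so the number is not read as a trait of these enzymes. The median difference of the 15 was 0.25 without Ad-lipin replicate 1 and 0.25 without GFP replicate 2, against -0.37 without Ad-lipin replicate 2 and -0.36 without GFP replicate 1.

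The main variation in these enzymes lay between the arrays within each group, a feature noticed after the values were seen. In 12 of the 15 tested probe sets the replicate 2 array exceeded the replicate 1 array both in the Ad-lipin and in the GFP livers, where 26.3% of all probe sets tested did so. The exceptions were Amacr, the Scp2 probe set 1426219_at and the dimmer Baat probe set. Taking the brightest probe set of each gene, 8 of 10 genes showed it. After quantile normalization 13 of the 15 did, against 26.0% of all, and after centring each array on its median 11 did, against 21.4% of all. In log2 units from the mean of the 4 arrays, the median of the 15 stood at -0.31 and 0.18 in Ad-lipin replicates 1 and 2, against -0.27 and 0.44 in GFP replicates 1 and 2, and at -0.26, 0.15, -0.21 and 0.35 in the same order of arrays after quantile normalization. The labels do not say whether a replicate number stands for a shared day, cage or batch, and no test was made of this pattern. Of the replicate 2 arrays, Ad-lipin replicate 2 is the sample labelled polyA RNA. GFP replicate 2 had the highest 3' to 5' ratio of beta-actin (4.22) and the lowest mean correlation with the other arrays (0.731). The part of these array traits in the pattern was not tested.

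**Figure D3:**
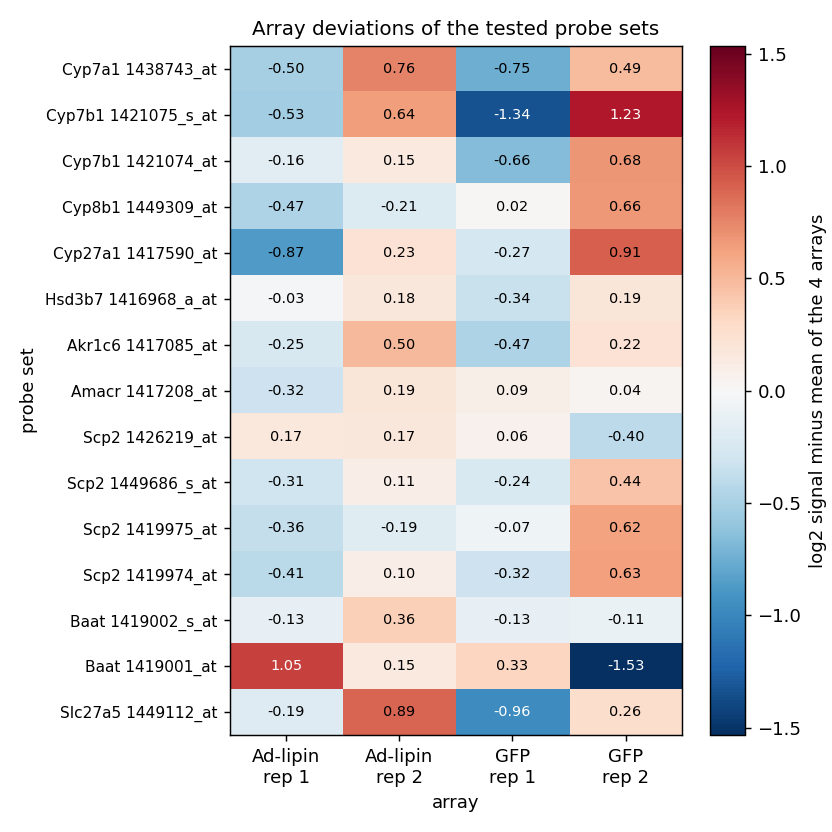
Log2 signal of the 15 tested probe sets on each array minus the mean of the 4 arrays, with the value printed in each cell and red for above the mean. The replicate 2 columns are mostly red and the replicate 1 columns mostly blue in both groups, with the widest range in the brighter Cyp7b1 probe set and the dimmer Baat probe set.

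Cyp7a1, Cyp7b1, Cyp27a1 and Slc27a5 showed the pattern most clearly, each with a replicate 2 signal more than 2 times that of replicate 1 in both groups on its brightest probe set. For Slc27a5 the ratio was 2.12 in Ad-lipin livers and 2.34 in GFP livers, and for the brighter Cyp7b1 probe set 2.25 in Ad-lipin livers and 5.91 in GFP livers. Akr1c6 had ratios of 1.68 in Ad-lipin livers and 1.62 in GFP livers. For Hsd3b7 and Cyp8b1 the ratios were smaller, at 1.15 and 1.20 in Ad-lipin livers and 1.44 and 1.56 in GFP livers.

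Summed signals of cell type markers are given beside this pattern, and none of these markers was listed at 0. The summed signal of 6 macrophage markers was 41042 and 25018 in Ad-lipin replicates 1 and 2, against 43441 and 25016 in GFP replicates 1 and 2, so it was lower in the replicate 2 arrays of both groups, and 5 of these markers were bright enough to test. The 6 hepatocyte markers summed to 2441235 and 2559990 in Ad-lipin livers, against 1850924 and 3833488 in GFP livers. This sum was higher in replicate 2 of both groups and highest in GFP replicate 2. Sums of 5 T and NK cell markers were 2124 and 2511 in Ad-lipin livers, against 1842 and 3355 in GFP livers, with Cd3e, Cd3g and Cd4 too dim to test. The 5 cholangiocyte markers gave 1261 and 2972 in Ad-lipin livers, against 1052 and 3178.5 in GFP livers. Sums of 5 endothelial markers were 9848 and 12091 in Ad-lipin livers, against 8967 and 14414 in GFP livers, and those of 6 stellate cell markers 6801 and 7992.5 in Ad-lipin livers, against 4603 and 5542 in GFP livers. All of these sums except that of the macrophage markers were higher in replicate 2 of both groups. The part of the cell types in the pattern of the bile acid enzymes was not tested.

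**Figure D4:**
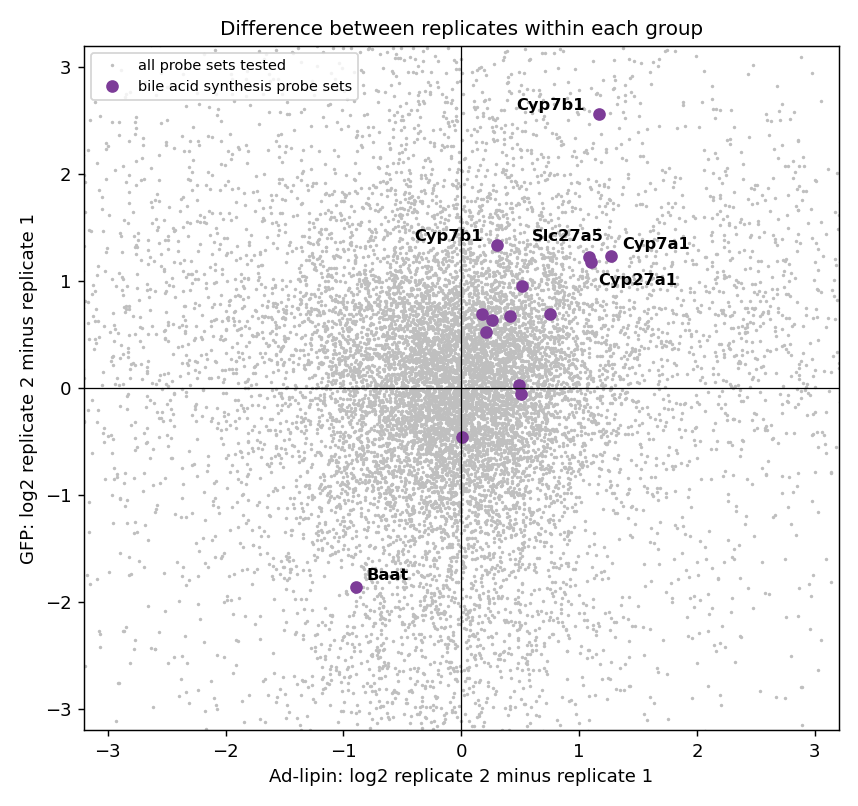
Log2 signal of replicate 2 minus replicate 1 in the Ad-lipin livers (horizontal axis) and in the GFP livers (vertical axis), with all 13576 tested probe sets in grey (615 lie outside the axes) and the 15 bile acid synthesis probe sets in purple. Of the purple points 12 lie in the upper right part, and the dimmer Baat probe set lies in the lower left.

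Other genes of bile acid synthesis and its control were taken as a list of 20, and 19 had a tested probe set. With each gene at its brightest probe set, 15 lay above 0 and 4 below (50.3% and 49.7% over all probe sets tested), with a median log2 difference of 0.20, where that of all was 0.00378. Limma called 0 higher and 0 lower, and 2, Hnf4a and Hsd17b4, were higher at an unadjusted p under 0.05 and 0 lower (2.47% and 1.92% over all probe sets tested). Both Ad-lipin arrays lay above both GFP arrays in 4 genes and below in 1 (17.1% and 15.9% over all). The smallest p belonged to Hnf4a, a nuclear receptor that activates Cyp7a1 and Cyp8b1 (1427001_s_at), which read 22537 and 23579 in Ad-lipin livers, against 17791 and 8054 in GFP livers (log2 0.95 ± 0.37, SE, and 0.37 without GFP replicate 2). Its other 3 probe sets gave 0.37, -0.03 and -0.12. Hsd17b4, the bifunctional enzyme of peroxisomal side-chain oxidation, read 8575 and 11018 in Ad-lipin livers, against 7294 and 4181 in GFP livers (log2 0.82 ± 0.36, SE, and 0.41 without GFP replicate 2), and its second probe set gave 0.61.

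Slc27a2, which can activate sterol-derived acids, and Cyp46a1, a cholesterol hydroxylase known mainly from brain, had the next smallest p. Slc27a2 read 39436 and 47719 in Ad-lipin livers, against 22709.5 and 34192 in GFP livers, a log2 difference of 0.64 ± 0.35 (SE) that was 0.34 without GFP replicate 1. Cyp46a1 was dim, at 121 and 538 in Ad-lipin livers, against 996 and 796 in GFP livers (log2 -1.80 ± 1.23, SE, and -0.73 without Ad-lipin replicate 1). All 4 genes had a limma adjusted p of 0.962.

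The receptors of bile acid feedback gave no difference that passed. Nr1h4 (FXR) read 3158 and 3536 in Ad-lipin livers, against 2512 and 3606 in GFP livers, a log2 difference of 0.15 with a 95% interval from -0.71 to 1.01, and of -0.11 without GFP replicate 1. Its target Nr0b2 (SHP), a repressor of Cyp7a1, read 2620.2 and 4023 in Ad-lipin livers, against 1931 and 2665 in GFP livers (log2 0.52 ± 0.44, SE, with 0.21 without Ad-lipin replicate 2 and 0.28 without GFP replicate 1). In both genes replicate 2 was the higher array of each group. This held for 7 of the 19 tested genes of this list (26.3% over all probe sets tested). Nr5a2 (LRH-1) read 2538 and 3124 in Ad-lipin livers, against 3041 and 3068.5 in GFP livers on its brightest probe set (log2 -0.12, and 0.03 without Ad-lipin replicate 1), and its other 2 tested probe sets gave -0.02 and 1.53, the last at 0.46 without GFP replicate 2. Fgfr4, the receptor through which the intestinal hormone FGF15 lowers bile acid synthesis in mice, gave log2 differences of 0.56, 0.66 and -0.49 on its 3 tested probe sets. Without Ad-lipin replicate 1 these Fgfr4 differences were 0.19, 0.11 and 0.31, but without Ad-lipin replicate 2 they were 0.93, 1.20 and -1.29. They were 0.39, 0.89 and -0.82 without GFP replicate 1, and 0.72, 0.43 and -0.16 without GFP replicate 2.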

How the data were processed

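Each of the 4 Affymetrix mouse arrays measured 1 liver sample, and titles gave the groups. The authors deposited an intensity on a linear scale for each probe set and array, computed with MAS5 per the submitters' processing notes. Its version and scaling target are not given, and detection calls were not used. MAS5 subtracts mismatch probes and scales arrays linearly, which leaves dim probe sets noisy.

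Without the 64 controls, signals under the 20th percentile were raised to it, and probe sets with a mean log2 signal at or above the 40th percentile were fitted on group with limma 3.58.1 in R 4.3.3 (eBayes with an intensity trend, 12.7 prior degrees of freedom), with two-sided p-values adjusted by Benjamini-Hochberg over 13576. The fit was tested on simulated data with independent noise and changes larger than any difference of the bile acid probe sets. That simulation therefore does not address differences of the size seen here. All 10 symbols matched RefSeq (GRCm38.p6, used for names and promoters only) by Entrez identifier. Probe sets with _s_at names can match several transcripts. The members and lists were chosen with earlier results of these data known. Named are all members, the 4 other pathway genes with the smallest p at their brightest probe set, Nr1h4, Nr0b2, Hnf4a, Nr5a2 and Fgfr4, and Lpin1. With 2 arrays a group, the precision is limited by their number. Floors, filters, scaling, the spread model, a replicate block and left-out arrays were varied.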

Additional observations from a re-analysis of the deposited data

How the results depend on the processing

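Of the 15 tested probe sets, 0 were called under every alternative run (quantile normalization, median centring, floors at the 10th and 30th percentile, no filter or a filter at the 60th percentile, eBayes without a trend, the replicate number as a block, and each array left out), with a lowest limma adjusted p of 0.354, without GFP replicate 1. Over the whole table limma called 0 probe sets with all arrays and 0 to 13 with an array left out. With the replicate number as a block it called 52, of which 34 were higher and 18 lower, and the lowest adjusted p of a bile acid probe set was 0.610. The replicate numbers are not known to pair the arrays, and deviations of same-numbered arrays correlated at 0.0283 over all probe sets tested. In that fit, and without either Ad-lipin array, the prior degrees of freedom were infinite, so the spread came from the intensity trend alone. Where an array is left out, its group keeps 1 array, whose spread is taken from the other group or the trend.

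The median difference of the bile acid probe sets ran from -0.37 to 0.25 with an array left out, against 0.11 with all arrays. It was 0.09 after quantile normalization, 0.14 after median centring, 0.05 without the filter and 0.19 with 1 probe set a gene, each within the spread between replicates (SD 0.43). After median centring the dimmer Cyp7b1 probe set changed sign to 0.017. With an array left out, 9 probe sets changed sign. Their ranges were -0.37 to 0.89 for Cyp7a1, -1.17 to 1.39 and -0.68 to 0.66 for the brighter and dimmer Cyp7b1, -0.11 to 0.41 for Hsd3b7, -0.13 to 0.62 for Akr1c6, -0.39 to 0.12 for Amacr, -0.54 to 0.14 and -0.79 to 0.17 for Scp2 1449686_s_at and 1419974_at, and -0.0075 to 0.48 for the brighter Baat. The other 6 kept their sign under every alternative run, and Cyp8b1 ran from -1.01 to -0.37. Quantile normalization, median centring and no filter on the replicate pattern were chosen after seeing the data.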
